A study of Mus musculus with 12 samples.

Results

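The zinc finger genes described here are all genes of the mouse annotation whose symbol is Zfp9 followed by 2 more digits, from Zfp930 to Zfp995. The rule found 64 genes of the 53465 in the files, 63 of them protein coding and 1, Zfp939, a transcribed pseudogene. The rule reads the symbol and no measured value. RNA was sequenced from mouse forelimb buds in 12 libraries, 3 in each of 4 groups, and each library came from 1 pair of buds of a Swiss albino embryo. Tbx3_WT and Tbx3_del buds were taken at E9.75 to E10.0 (28 to 31 somites), and the Tbx3_del embryos carried on both copies the Tbx3ΔVenus allele, in which a Venus reporter with a transcription stop sits at the start codon of the T-box repressor Tbx3. Hand2_WT (Prrx1-Cre; Hand2+/+) and Hand2_del (Prrx1-Cre; Hand2Δ/Δc) buds were taken at E10 to E10.25 (31 to 33 somites). Hand2 is a basic helix-loop-helix activator of posterior limb identity, and both Hand2 groups carry the Prrx1-Cre transgene, which acts in limb mesenchyme and leaves the ectoderm and blood cells of the bud untargeted.

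Most genes of this kind encode KRAB zinc finger proteins. An array of C2H2 zinc fingers reads a DNA sequence, often within a transposable element, and the KRAB domain binds TRIM28, which brings the histone methyltransferase SETDB1 and heterochromatin proteins to the site. The family grows by tandem duplication, so that neighbouring genes can be close copies of each other, and in the mouse large arrays lie on distal chromosomes 4 and 2.

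Grouped by chromosome on GRCm38, 16 of the 64 genes lay on chromosome 4, 13 on chromosome 17, 11 on chromosome 2, 9 on chromosome 7 and 5 on chromosome 8. Chromosome 13 held 3, chromosome 5 held 2, and chromosomes 6, 9, 10, 14 and 19 held 1 each. All 16 genes of chromosome 4 fell in 1 stretch of 2.34 Mb (chr4:145510759-147848366). On chromosome 2, 10 of the 11 lay within 2.71 Mb near the distal end (chr2:175372436-178078476), apart from Zfp937. On chromosome 17, 10 of the 13 lay within 1.3 Mb (chr17:21567008-22867134).

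The coding sequences of the 63 coding members were translated from the GENCODE M21 annotation. A KRAB-like motif was present in 56 of them, the number of C2H2 fingers had a median of 11 (range 0 to 21), and 3 had no complete finger. The proteins had a median length of 486 residues (range 139 to 794).

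Whether the genes are recent duplicates was checked by the share of the 85-base words of a gene's transcripts, 85 bases being the read length, that occur in no other gene of the annotation. The median over the 64 was 93.1%, and 15 had under 50%, of which 7 were on chromosome 4 and 6 on distal chromosome 2. The median was 56.9% on chromosome 4 and 21.4% on distal chromosome 2, but 99.0% in the chromosome 17 stretch and 96.7% among the other 28. At this scale the name recent duplicates holds for many genes of the arrays of chromosomes 4 and 2, though the chromosome 4 genes ran from 22.5% to 100%. In the chromosome 17 stretch little was shared at 85 bases. The share of unique 31-base words there ran from 72.9% (Zfp947) to 98.5% (Zfp945). An 85-base word is lost to 1 changed base, so it cannot show whether that stretch holds more diverged copies. The genes are therefore called the Zfp9 genes below.

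Example sequences are shown for some of the genes on which the results turn, to compare them base by base. They are not the shared words themselves. The finger repeats are shorter than a word, and most of each promoter lies before the start of the gene. The first set is 1 zinc finger repeat of 84 bases (28 codons) from the coding sequence of Zfp991, the gene with the largest change, with the closest match in the coding sequences of its chromosome 4 neighbours and, from chromosome 7, of Zfp941. Capitals mark bases that differ from Zfp991.
Zfp991: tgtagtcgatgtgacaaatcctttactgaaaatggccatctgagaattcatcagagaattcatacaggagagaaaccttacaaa
Zfp992: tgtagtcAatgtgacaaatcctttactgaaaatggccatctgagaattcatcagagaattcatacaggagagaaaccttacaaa
Zfp993: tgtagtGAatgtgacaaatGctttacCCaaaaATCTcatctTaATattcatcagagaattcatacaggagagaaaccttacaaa
Zfp984: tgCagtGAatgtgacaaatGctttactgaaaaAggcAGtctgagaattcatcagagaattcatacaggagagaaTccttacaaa
Zfp985: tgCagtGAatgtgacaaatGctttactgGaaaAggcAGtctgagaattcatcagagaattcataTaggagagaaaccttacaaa
Zfp933: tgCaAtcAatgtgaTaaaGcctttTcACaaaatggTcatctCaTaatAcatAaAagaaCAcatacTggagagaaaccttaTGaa
Zfp941: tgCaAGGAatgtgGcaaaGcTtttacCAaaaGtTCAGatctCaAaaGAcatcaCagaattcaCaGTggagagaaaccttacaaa

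The repeat of Zfp992 differed from that of Zfp991 at 1 base, and those of Zfp984, Zfp985 and Zfp993 differed at 8, 9 and 12. Zfp933, at the end of the same stretch, differed at 19 bases and Zfp941 at 23. Over whole transcripts, 26.7% of the 85-base words of Zfp991 were its own, and 58.9% also occurred in Znf41-ps, a neighbour annotated under a pseudogene name. The second set is a pair of promoters (RefSeq, GRCm38.p6, 250 bases before to 50 after the start) from distal chromosome 2, where the lowest values in Tbx3_del were found. The Zfp968 promoter lies at chr2:175372186-175372485 and that of Zfp973 at chr2:176670272-176670571, both on the plus strand. The capital marks the only base of the 300 that differs, A106G counted from 1 at the 5′ end with Zfp968 as the reference.
Zfp968: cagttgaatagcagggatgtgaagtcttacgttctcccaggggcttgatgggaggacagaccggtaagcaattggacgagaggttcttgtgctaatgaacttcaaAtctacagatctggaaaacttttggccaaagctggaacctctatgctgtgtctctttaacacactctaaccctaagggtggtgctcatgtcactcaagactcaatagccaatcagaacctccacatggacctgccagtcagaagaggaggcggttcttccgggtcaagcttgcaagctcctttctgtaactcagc
Zfp973: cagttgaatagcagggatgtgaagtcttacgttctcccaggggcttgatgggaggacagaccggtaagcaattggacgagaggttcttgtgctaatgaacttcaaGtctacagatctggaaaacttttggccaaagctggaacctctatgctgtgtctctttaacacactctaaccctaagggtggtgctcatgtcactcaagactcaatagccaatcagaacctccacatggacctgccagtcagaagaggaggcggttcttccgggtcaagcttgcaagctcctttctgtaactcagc

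The Zfp966 promoter was identical to that of Zfp968 over 274 aligned bases, and that of Zfp965 differed at 1 base in 260. Promoters were available for 54 of the 64 genes. The letters CCAAT or their reverse complement were present in 41 of the 54 promoters (75.9%), against 37.9% of 27025 mouse promoters. The near-identical promoters of Zfp965, Zfp966, Zfp968 and Zfp973 are each counted among the 41, so the 54 are not independent. The T-box core motif GGTGTGA, read on both strands, was in 4 (7.41%, against 3.96%), those of Zfp946, Zfp949, Zfp956 and Zfp983. The E-box CATCTG was in 12 (22.2%, against 17.2%) and the GC box GGGCGG in 19 (35.2%, against 35.9%). These are matches of letters in a window, and none of the 4 genes with the T-box letters was called in either comparison. As 0 of 50 measurable Zfp9 genes were called in Tbx3_del and 4 of 55 in Hand2_del, that says nothing about the motif.

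The libraries of the Tbx3 series held 23.3 to 31.8 M counts (M, 1e6) and those of the Hand2 series 60.2 to 68.6 M. In the Hand2 series the Hand2 level was 118.6, 118.7 and 124.9 CPM (counts scaled to a library total of 1e6 by the TMM method of edgeR) in Hand2_WT and 0.185, 2.19 and 0.381 in Hand2_del. In the Tbx3 series Tbx3 was at 78.7, 77.9 and 79.4 CPM in Tbx3_WT and at 80.9, 80.3 and 74.1 in Tbx3_del (log2 fold change -0.01, SE 0.05, adjusted p = 0.954), so the Tbx3 count does not separate the groups labelled by that allele. All 8 limb mesenchyme markers, Hand2 among them, were above 0 in every group. Their summed level was 1697 to 1732 CPM in Tbx3_WT, 1440 to 1607 in Tbx3_del, 1622 to 1793 in Hand2_WT and 1627 to 2014 in Hand2_del, so the groups of the Tbx3 series did not overlap. The summed level of 4 macrophage markers was higher in the mutants, at 4.51 to 5.59 CPM in Tbx3_del against 1.09 to 3.54 in Tbx3_WT and at 5.29 to 10.2 CPM in Hand2_del against 2.88 to 4.75 in Hand2_WT. The groups were also apart for 3 neuron markers in the Tbx3 series, by a narrow margin (24.3 to 41.8 CPM in Tbx3_del, 41.9 to 56.6 in Tbx3_WT). In Hand2_del, 6 ectoderm markers were lower (193 to 207 CPM, against 215 to 241 in Hand2_WT) and 4 endothelial markers higher (214 to 235 CPM, against 199 to 206). Xist and Y-linked counts gave 3 female embryos in Tbx3_WT, 2 males and 1 female in Tbx3_del, 2 females and 1 male in Hand2_WT and 1 female and 2 males in Hand2_del. The part of these other cells in the results was not tested, and embryo sex was tried as a covariate. In the Tbx3 comparison that covariate left only the female Tbx3_del replicate 3 to set against Tbx3_WT. In whole buds, fewer cells of a type and less RNA per cell cannot be told apart.

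Of the 64 genes, 50 passed the filter on low counts in the Tbx3 libraries and 55 in those of the Hand2 series, and all 50 were among the 55. The 5 measurable only in the Hand2 series were Zfp980, Zfp981, Zfp985, Zfp986 and Zfp988, all on chromosome 4. Another 9 passed in neither: Zfp935, Zfp936, Zfp957, Zfp967, Zfp969, Zfp972, Zfp978, Zfp987 and Zfp989. Zfp935 had 0 counts in all 12 libraries, and 0% of its 85-base words were its own, because 99.2% also occurred in Gm49359. Zfp967 and Zfp969 likewise had 0% unique words, each being contained in Zfp968, so a count of 0 or near 0 does not show that they were silent. In all, 13 of the 64 stayed below 1 CPM in every library.

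Compared per length of exon, the highest mean level over the 12 libraries was that of Zfp961 on chromosome 8 (7.26 CPM per kb), followed by Zfp946 (6.14), Zfp948 (5.06), Zfp932 (4.88), Zfp958 (4.44) and Zfp984 (4.30). The Zfp9 genes are thus low to moderate in these buds, with mean levels of the 50 genes above 1 CPM between 1.22 and 31.5 CPM. Within chromosomes the mean level per length ran from 0.0024 (Zfp967) to 4.08 (Zfp966) CPM per kb on chromosome 2, from 0.0416 (Zfp989) to 4.30 (Zfp984) on chromosome 4 and from 0.00152 (Zfp936) to 3.56 (Zfp954) on chromosome 7. It ran from 0.387 (Zfp964) to 7.26 (Zfp961) on chromosome 8 and from 0.454 (Zfp983) to 6.14 (Zfp946) on chromosome 17. Summed over all 64 genes, the level was 419 to 446 CPM in Tbx3_WT, 422 to 473 in Tbx3_del, 450 to 476 in Hand2_WT and 440 to 472 in Hand2_del, and the ranges overlapped in both comparisons.

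The first comparison asked which Zfp9 genes differ between Tbx3_del and Tbx3_WT buds. None of the 50 measurable genes passed an adjusted p of 0.05 in the quasi-likelihood test of edgeR with Benjamini-Hochberg adjustment over all 15130 genes tested, of which 153 (1.01%) did. Their median log2 fold change was 0.03, against -0.003 for all genes, with 28 above and 22 below 0, and the range was -0.93 to 0.35. At an unadjusted p under 0.05 there were 2 of 50 (4.0%), against 14.3% of all genes, and DESeq2 called none. Groups that do not overlap in CPM were also found in 2 of 50, Zfp968 and Zfp939 (4.0%, against 20.2% of all genes).

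Both genes under the unadjusted threshold, and 4 of the 5 with the lowest fold changes, lay at distal chromosome 2. Zfp968 was at 3.87, 2.49 and 2.42 CPM in Tbx3_WT and at 1.96, 1.34 and 1.31 CPM in Tbx3_del. Every mutant library was below every wild-type library, and the log2 fold change was -0.93 (SE 0.27, adjusted p = 0.180). Zfp966 was at 14.7, 15.1 and 10.8 CPM in Tbx3_WT and at 12.5, 7.48 and 5.17 CPM in Tbx3_del. Here the groups overlapped through Tbx3_del replicate 1, and the log2 fold change was -0.70 (SE 0.30, adjusted p = 0.348). Zfp973 and Zfp965 gave -0.49 (SE 0.24) and -0.47 (SE 0.27), with adjusted p of 0.419 and 0.484. All Tbx3_WT embryos were female and 2 of the 3 Tbx3_del embryos male. With embryo sex as a covariate, only the female Tbx3_del replicate 3 was therefore set against Tbx3_WT. The values were then -1.16 for Zfp968, -1.39 for Zfp966, -0.80 for Zfp973 and -0.97 for Zfp965. They describe that library and are not an effect of genotype freed from sex. Leaving out a library moved Zfp966 to -1.10 (Tbx3_del replicate 1) or -0.45 (Tbx3_del replicate 3), Zfp973 to -0.79 (Tbx3_del replicate 1) and Zfp965 to -0.28 (Tbx3_del replicate 3). In the 3 measured neighbours whose words are mostly their own, Zfp970, Zfp971 and Zfp931, the log2 fold changes were 0.08, 0.03 and -0.18.

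**Figure D1:**
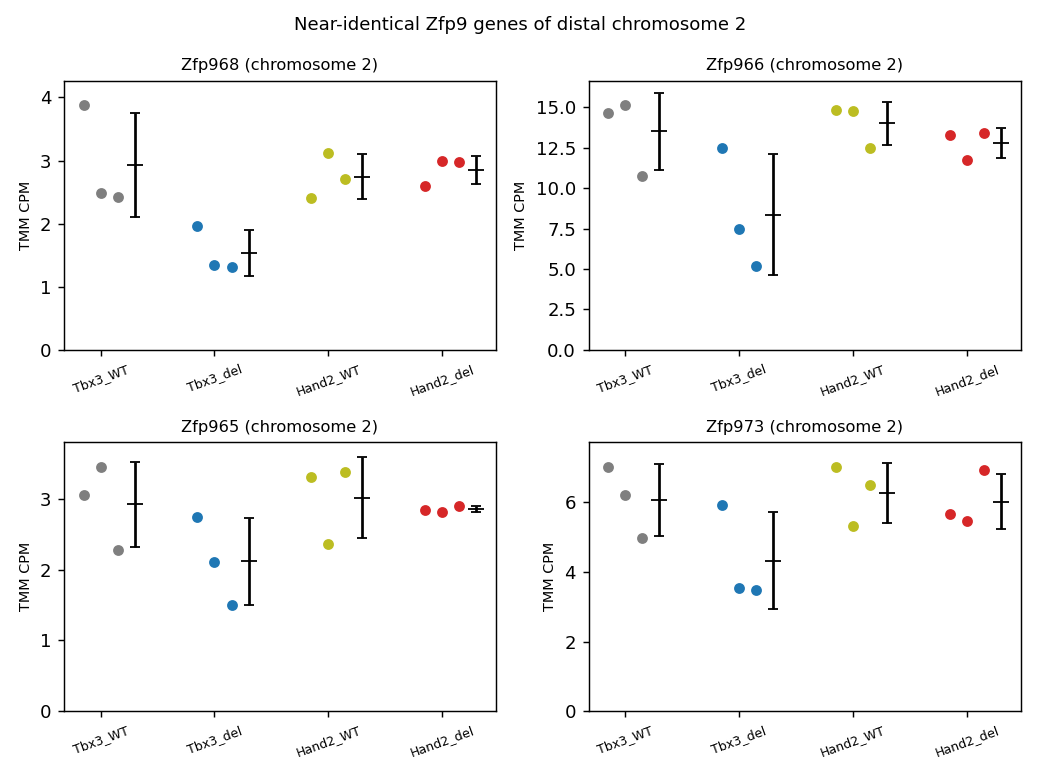
TMM-scaled CPM of Zfp968, Zfp966, Zfp965 and Zfp973, which share most of their 85-base words, in each library of the 4 groups (points: libraries 1 to 3; bars: mean and SD, n = 3). The lowest levels of Zfp968 are in Tbx3_del (1.31 to 1.96 CPM), and for Zfp966, Zfp965 and Zfp973 Tbx3_del replicate 1 lies within the range of Tbx3_WT.

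Reads of these copies are hard to assign. Only 9.02% of the 85-base words of Zfp968 were its own, 17.1% of those of Zfp966, 5.88% of Zfp965 and 25.7% of Zfp973, and their deposited counts were non-whole in all 12 libraries. Summed over Zfp965, Zfp966, Zfp967, Zfp968, Zfp969 and Zfp973, which avoids the split among these 6, the level was 28.6, 27.3 and 20.4 CPM in Tbx3_WT and 23.1, 15.2 and 11.5 CPM in Tbx3_del. The groups overlapped through Tbx3_del replicate 1, which was a male embryo, as was replicate 2. In Hand2_WT the same sum was 27.5, 25.6 and 25.1 CPM and in Hand2_del 24.4, 23.0 and 26.2 CPM. This sum was chosen after the values were seen and was not tested.

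The other large fold changes of the Tbx3 comparison lay outside distal chromosome 2. Zfp951, 14.81 Mb from Tbx3 on chromosome 5, was at 3.40, 0.393 and 1.35 CPM in Tbx3_WT and 1.18, 1.02 and 1.24 CPM in Tbx3_del. Its log2 fold change was -0.58 (SE 0.62), and it became 0.38 without Tbx3_WT replicate 1, the library with the high value. Zfp932, the other gene within 20 Mb of Tbx3 (9.66 Mb away), gave -0.06 (SE 0.10). Among the highest were the pseudogene Zfp939, at 2.15, 1.79 and 1.62 CPM in Tbx3_WT and 2.45, 2.37 and 2.28 CPM in Tbx3_del (0.35, SE 0.19, adjusted p = 0.469), Zfp977 (0.34, SE 0.39), Zfp991 (0.31, SE 0.37), Zfp974 (0.27, SE 0.16), Zfp950 (0.25, SE 0.18) and Zfp990 (0.24, SE 0.98). Zfp995 completed the lowest values with -0.22 (SE 0.16). None of these passed the test.

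**Figure D2:**
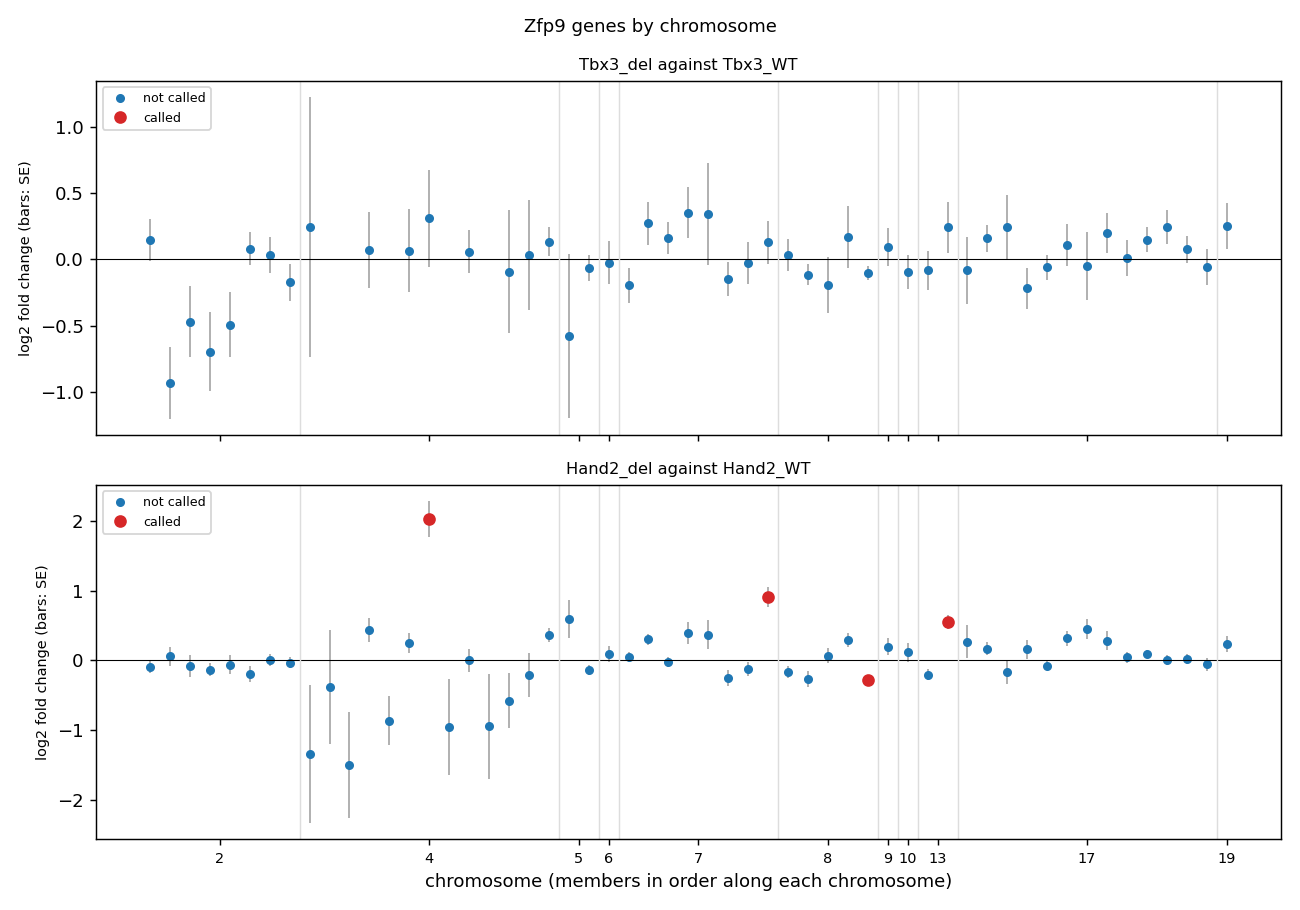
Log2 fold change of each measurable Zfp9 gene (y axis, bars: SE) in order along the chromosomes (x axis), for Tbx3_del against Tbx3_WT above and Hand2_del against Hand2_WT below. Red points passed an adjusted p of 0.05, none above and 4 below, and the widest bars are on chromosome 4.

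In Hand2_del buds, 3 Zfp9 genes rose and 1 fell. Zfp991 on chromosome 4 rose by 2.02 on the log2 scale, Zfp941 on chromosome 7 by 0.91 and Zfp953 on chromosome 13 by 0.55, and Zfp961 on chromosome 8 fell by 0.28. These are 4 of 55 measurable genes (7.27%), against 1836 of 17488 genes tested (10.5%), so the share called was below that of all genes. By direction, 4.68% of all genes were called higher and 5.82% lower. Of the 294 other numbered Zfp genes that were measurable, 20 were called (6.80%), 8 higher and 12 lower. The median log2 fold change of the 55 was 0.0064, against 0.0128 over all genes, and groups did not overlap in 19 of them (34.5%, against 37.8%). At an unadjusted p under 0.05 there were 13 (23.6%, against 32.4% of all genes).

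Zfp991 encodes a KRAB-like protein with 11 fingers. It was at 3.04, 2.66 and 2.79 CPM in Hand2_WT and at 8.73, 9.17 and 16.7 CPM in Hand2_del. Every mutant library was above every wild-type library, and the log2 fold change was 2.02 (SE 0.26, adjusted p = 0.0100). In the Tbx3 series it was at 10.3, 23.4 and 11.7 CPM in Tbx3_WT and 12.7, 27.6 and 15.8 CPM in Tbx3_del, so that Hand2_WT stood low against the 3 other groups. The call held in the other 6 fits that kept all libraries and in 5 of the 6 fits that left out a library, and was lost without Hand2_WT replicate 3 (adjusted p = 0.0529), where the log2 fold change was 2.01.

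Because the words of Zfp991 are shared, its closest copies were added to it. Znf41-ps was at 2.91, 3.26 and 6.28 CPM in Hand2_WT and 7.46, 9.30 and 11.97 CPM in Hand2_del. Summed over Zfp991, Zfp992, Zfp993, Znf41-ps and Gm13241, the level was 18.8, 19.1 and 26.3 CPM in Hand2_WT and 33.6, 36.5 and 52.7 CPM in Hand2_del, with no overlap. Every Hand2_del library was thus above every Hand2_WT library in the sum as in Zfp991 alone, but this sum was chosen after the values were seen and was not tested. The 5 genes with the pattern over the 12 libraries most like that of Zfp991 were Gm13241 (Pearson r = 0.972), Mmab (0.931), Znf41-ps (0.916), Fbxo44 (0.908) and Acer2 (0.907), and all but Mmab lie on chromosome 4. Gm13241 and Znf41-ps lie within the array and can share reads with Zfp991, and Fbxo44 starts just past its distal end, at position 148152800. Acer2 lies far from the array, at position 86874396.

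Zfp941, with 9 fingers and 96.4% unique words, was at 2.00, 1.94 and 1.83 CPM in Hand2_WT and at 3.49, 4.23 and 3.18 CPM in Hand2_del (log2 fold change 0.91, SE 0.14, adjusted p = 0.0177). All 3 mutant libraries were above all 3 wild types, while the 6 libraries of the Tbx3 series ran from 2.69 to 3.55 CPM, so Hand2_WT was again the group that stood low. The call was lost with the replicate number as a block (adjusted p = 0.0911), without Hand2_WT replicate 1 (0.0583) and without Hand2_WT replicate 3 (0.0803). Over the 12 libraries its pattern was most like those of Hes7 (r = 0.965), Dapk3 (0.936), Klhl26 (0.933), Lcmt2 (0.931) and Prr5l (0.923).

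Zfp953, with 9 fingers, was at 3.43, 2.96 and 3.47 CPM in Hand2_WT and at 4.77, 4.97 and 4.75 CPM in Hand2_del. The groups did not overlap, and the log2 fold change was 0.55 (SE 0.10, adjusted p = 0.0276). In the Tbx3 series it spanned 3.43 to 5.37 CPM, across both levels. Its call was lost with embryo sex as a covariate (adjusted p = 0.0669), under the replicate block (0.127) and in 5 of the 6 fits that left out a library, all but the one without Hand2_WT replicate 2. Over the 12 libraries its pattern was most like those of Ndufa13 (r = 0.900), Ubac2 (0.897), Mup10 (0.888), Gstm4 (0.886) and Cxxc5 (0.883).

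Zfp961 was the highest Zfp9 gene per length. It was at 33.5, 31.3 and 33.0 CPM in Hand2_WT and at 24.6, 29.0 and 27.2 CPM in Hand2_del, with no overlap, and at 31.2 to 35.2 CPM in the Tbx3 series. Here Hand2_del was the group that stood apart (log2 fold change -0.28, SE 0.07, adjusted p = 0.0492). The call lay at the threshold: it was lost with embryo sex as a covariate (adjusted p = 0.0961), under the replicate block (0.149), without the low-count filter (0.0515) and in 5 of the 6 fits that left out a library, all but the one without Hand2_del replicate 2. The sign was negative in every one of these fits. The patterns most like it over the 12 libraries were those of Mycbp (r = 0.984), Atp5g3 (0.981), Rps6ka6 (0.971), Elp5 (0.965) and Hmgn1 (0.961).

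**Figure D3:**
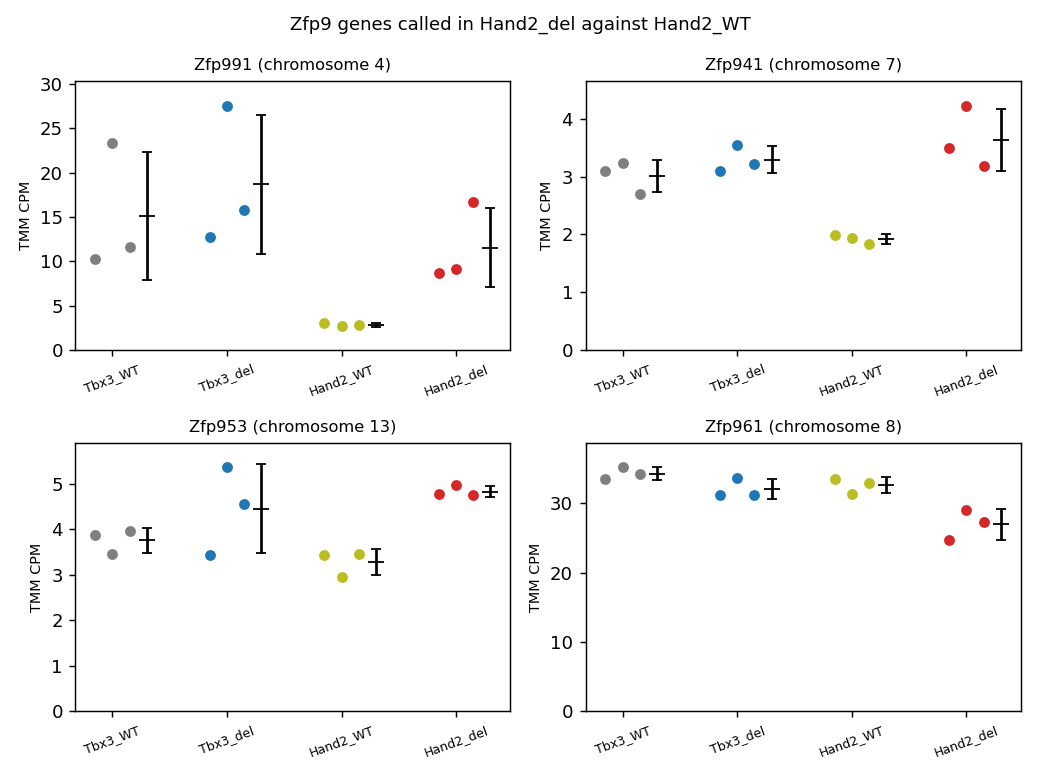
TMM-scaled CPM of the 4 Zfp9 genes called in Hand2_del against Hand2_WT, in each library of the 4 groups (points: libraries 1 to 3; bars: mean and SD, n = 3). Hand2_WT lies below the other groups for Zfp991 (2.66 to 3.04 CPM) and Zfp941 (1.83 to 2.00 CPM), and Hand2_del lies below them for Zfp961 (24.6 to 29.0 CPM).

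Zfp961 lies 14.63 Mb from Hand2 on chromosome 8, and 3 more Zfp9 genes lie within 20 Mb of it. Zfp930, 11.88 Mb away, was at 23.6, 19.6 and 21.2 CPM in Hand2_WT and 15.3, 19.5 and 19.0 CPM in Hand2_del (-0.26, SE 0.11, adjusted p = 0.162). Zfp963, 12.42 Mb away, went the other way, from 4.15, 4.62 and 4.41 CPM to 5.05, 5.62 and 5.49 CPM (0.29, SE 0.10, adjusted p = 0.0902). Zfp964, 12.33 Mb away, gave 0.06 (SE 0.11). The genes near Hand2 therefore did not share a direction.

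Just outside the threshold, Zfp974 was at 7.27, 7.78 and 7.76 CPM in Hand2_WT and 9.69, 8.86 and 9.62 CPM in Hand2_del (0.30, SE 0.08, adjusted p = 0.0551). Zfp933 was at 8.90, 9.15 and 9.34 CPM in Hand2_WT and 10.5, 11.6 and 13.1 CPM in Hand2_del (0.36, SE 0.10, adjusted p = 0.0560). Both pairs of groups were apart, and DESeq2 called both. Of the 10 measurable genes of the chromosome 17 stretch none was called, 8 were above 0, and the largest value was that of Zfp947 (0.45, SE 0.14, adjusted p = 0.0821). Of the 7 at distal chromosome 2 none was called, and their log2 fold changes ran from -0.20 to 0.05.

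The lowest fold changes in Hand2_del were all on chromosome 4 and none was called. Zfp986 gave -1.51 (SE 0.76), Zfp990 -1.35 (SE 1.00), Zfp988 -0.96 (SE 0.69), Zfp985 -0.95 (SE 0.75), Zfp981 -0.87 (SE 0.36) and Zfp979 -0.58 (SE 0.40). Of these, Zfp986 and Zfp981 lay near the floor, at no more than 0.405 and 0.330 CPM in any library. Zfp988 reached at most 1.37 CPM. Among the highest were also Zfp951 (0.59, SE 0.27) and Zfp992 (0.44, SE 0.17). Without Hand2_del replicate 3 these values shrank to -0.91 for Zfp986, -0.76 for Zfp990 (adjusted p = 0.0512), -0.43 for Zfp988, -0.41 for Zfp985, -0.27 for Zfp979 and 0.28 for Zfp992, none of them called, while Zfp981 stayed at -0.81. Zfp979 also moved to -0.20 without Hand2_WT replicate 3 and to -0.92 without Hand2_del replicate 2. Zfp981 moved to -0.643 without Hand2_del replicate 1 and to -1.215 without Hand2_del replicate 2.

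Zfp990 was at 10.4, 11.2 and 13.0 CPM in Hand2_WT and at 6.40, 7.20 and 0.0439 CPM in Hand2_del. In Tbx3_WT it was at 3.27, 0.262 and 4.001 CPM and in Tbx3_del at 4.49, 0.256 and 4.34 CPM. The 3 libraries Tbx3_WT replicate 2, Tbx3_del replicate 2 and Hand2_del replicate 3 were thus far below the others, and the highest library exceeded the lowest 297-fold. Of the 85-base words, 92.6% were unique in Zfp990 and 97.1% in Zfp985. Of the 31-base words, 50.7% were unique in Zfp990 and 60.9% in Zfp985, and both genes had non-whole counts in all 12 libraries. How the reads were assigned was not tested. Zfp985 was at 2.25, 2.67 and 3.86 CPM in Hand2_WT, at 2.12, 2.30 and 0.146 CPM in Hand2_del, and at 0.0408 to 0.344 CPM in the 6 libraries of the Tbx3 series, so Hand2_del replicate 3 lay within the range of the Tbx3 series.

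The same libraries stood apart in other chromosome 4 genes, in the opposite direction. In Tbx3_WT, Zfp991 was at 23.4 CPM in replicate 2 and at 10.3 and 11.7 CPM in replicates 1 and 3. In Tbx3_del it was at 27.6 CPM in replicate 2 and at 12.7 and 15.8 CPM in replicates 1 and 3. Zfp992, Zfp993, Zfp984 and Zfp979 were also highest in replicate 2 of both Tbx3 groups, and Zfp991, Zfp992 and Zfp993 were highest in Hand2_del replicate 3 within that group. Zfp979 and Zfp984 were instead lowest in Hand2_del replicate 3 (3.11 and 11.2 CPM) and highest in Hand2_WT replicate 3 (13.0 and 25.2 CPM). Zfp933, in the same 2.34 Mb, stayed between 8.90 and 13.1 CPM in all 12 libraries. The level of Zfp991 thus differed between embryos of 1 genotype along with its neighbours, and whether all embryos carried the same haplotype of this array was not tested, which also limits what its call in Hand2_del can be assigned to.

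**Figure D4:**
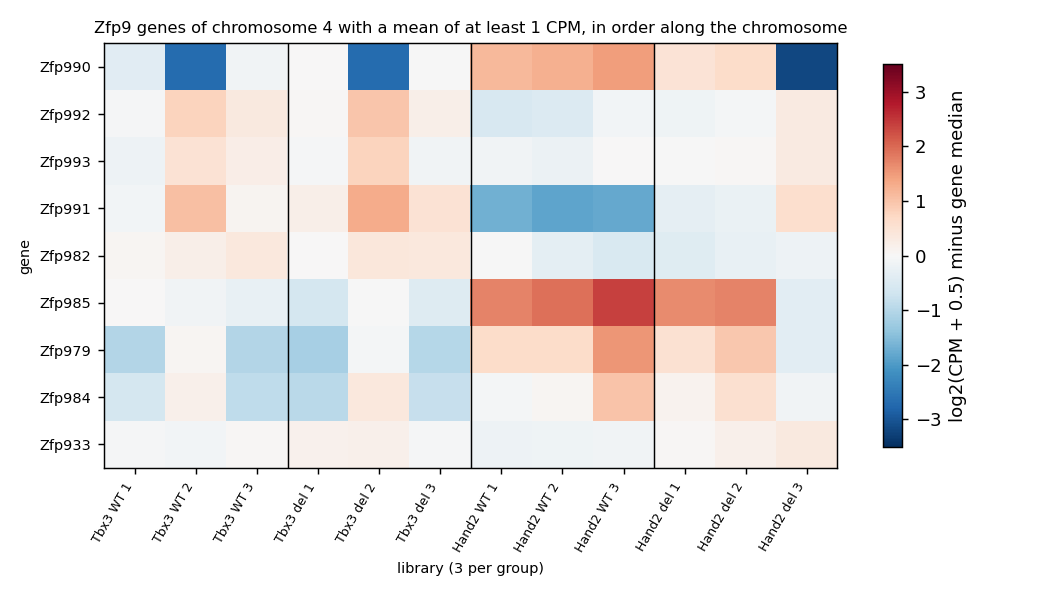
Level of the 9 chromosome 4 Zfp9 genes with a mean of at least 1 CPM, as log2(CPM + 0.5) minus the gene's median over the 12 libraries (colour), with libraries in columns and genes in order along the chromosome. Zfp990 is low in replicate 2 of both Tbx3 groups and in Hand2_del replicate 3, where Zfp991 is the highest of its group.

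The spread between libraries of 1 group was measured as the pooled within-group SD of log2(CPM + 0.5), for the 50 genes with a mean of at least 1 CPM. On chromosome 4 its median over 9 genes was 0.49, against 0.14 over 6824 genes of the same range of levels. These genes were pooled from 1.22 to 31.5 CPM and not matched gene by gene. Zfp985 and Zfp951 (means of 1.22 and 1.28 CPM) lie at the low end of that range. Above the 95th percentile of those genes (0.46) were 5 of the 9 (55.6%), namely Zfp990 (1.51), Zfp985 (0.64), Zfp979 (0.60), Zfp984 and Zfp991. Of the 41 Zfp9 genes elsewhere 1 was above it (2.44%), Zfp951 (0.56), and at distal chromosome 2 and in the chromosome 17 stretch none of 7 and none of 10 were. At distal chromosome 2 the median SD was 0.23. It was 0.34 for Zfp966, 0.26 for Zfp973, 0.25 for Zfp965 and 0.23 for Zfp968, the genes with the fewest unique words, and 0.10 to 0.11 for Zfp931, Zfp970 and Zfp971. These are descriptions, with no test, and any cause was not tested.

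**Figure D5:**
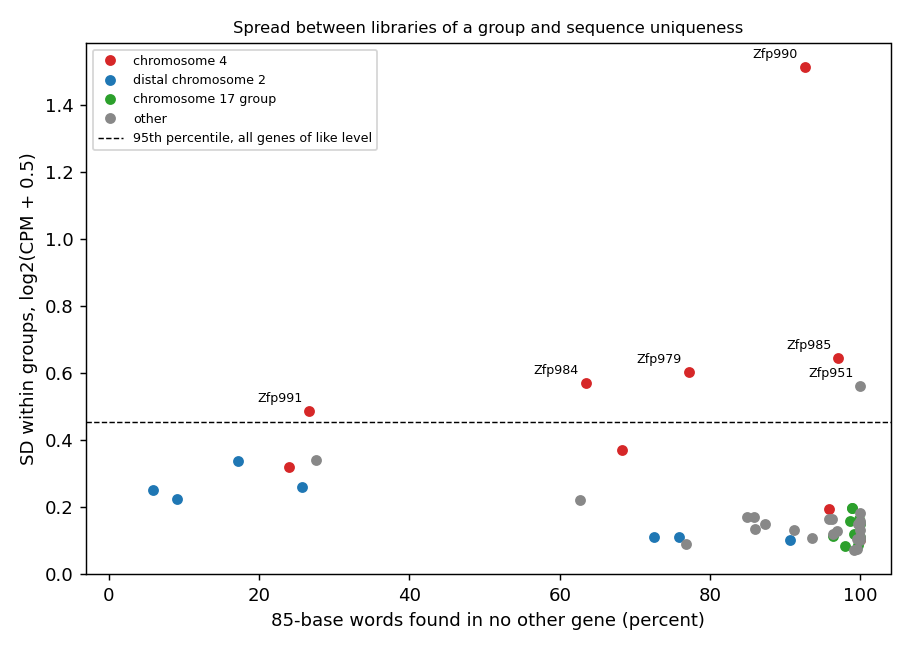
Within-group SD of log2(CPM + 0.5) of the 50 Zfp9 genes with a mean of at least 1 CPM (y axis) against the share of their 85-base words found in no other gene (x axis, percent). The dashed line is the 95th percentile of all genes pooled over the same range of levels (0.46), and 5 of the 6 points above it are on chromosome 4.

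Whether the effects differ between the mutants was tested in a fit of all 12 libraries, in which 56 Zfp9 genes were measurable. None passed an adjusted p of 0.05 for the Hand2 effect minus the Tbx3 effect (292 of 17360 genes did, 1.68%). At an unadjusted p under 0.05 there were 3 of the 56 (5.36%, against 17.4% of all genes). These were Zfp941 (difference 0.79, SE 0.20, adjusted p = 0.0752), Zfp991 (1.72, SE 0.52, adjusted p = 0.130) and Zfp968 (0.99, SE 0.30, adjusted p = 0.135). DESeq2 called Zfp941 alone (adjusted p = 0.0424).

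The wild types differed in 2 of the 56 genes (3.57%, against 2.07% of all genes), Zfp991, with a log2 difference (Hand2_WT minus Tbx3_WT) of -2.41 (SE 0.38, adjusted p = 0.0167), and Zfp941 (-0.64, SE 0.14, adjusted p = 0.0454). This comparison shares the Hand2_WT libraries with the Hand2 comparison, in which the same 2 genes gave 2.02 and 0.91. Stage, breeding colony, Prrx1-Cre and depth differ together between the wild types and cannot be told apart. Embryo sex differed as well, since Hand2_WT replicate 3 was male and every other wild-type embryo female. The call of Zfp991 was lost without Hand2_WT replicate 2 (adjusted p = 0.0672) and without Hand2_WT replicate 3 (0.0660). The call of Zfp941 was lost in each fit without a single wild-type library except the one without Tbx3_WT replicate 3, and also with the 6 wild-type libraries alone (adjusted p = 0.101), where Zfp985 was called in its place, and under the replicate block (0.0637). DESeq2 called both and also Zfp985, Zfp979, Zfp992 and Zfp982, all on chromosome 4. Zfp985 gave 3.46 (adjusted p = 0.000699).

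A list of 33 genes was picked by hand, all of them measurable. It holds the KRAB partner Trim28, Setdb1 and heterochromatin proteins, and also broader genes of chromatin silencing and DNA methylation. In Tbx3_del none was called, 4 had an unadjusted p under 0.05 (12.1%, against 14.3% of all genes), and the median log2 fold change was -0.05, against -0.003 over all genes. In Hand2_del 4 fell and none rose (12.1%, a share near the 10.5% of all genes). Below 0 were 28 of the 33, against 8385 of 17488 genes tested, and the median was -0.09, against 0.01 over all genes. The 4 were the de novo DNA methyltransferase Dnmt3b (73.8 ± 3.43 CPM in Hand2_WT and 55.0 ± 1.36 in Hand2_del, SD, n = 3, log2 fold change -0.43, adjusted p = 0.00319), Uhrf1, which guides maintenance methylation (-0.21, adjusted p = 0.0334), the H3K9 methyltransferase Suv39h2 (-0.27, adjusted p = 0.0389) and the HUSH complex member Pphln1 (-0.17, adjusted p = 0.0436). Trim28 itself was at 1168 ± 24.5 CPM in Hand2_WT and 1060 ± 38.5 CPM in Hand2_del (SD, n = 3), and the change of -0.14 on the log2 scale did not pass (SE 0.04, adjusted p = 0.0646). For Setdb1 it was -0.07 (SE 0.04), also not called, and neither were the heterochromatin protein genes Cbx1, Cbx3 and Cbx5. The 4 called genes thus came from the broader part of the list.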

How the data were processed

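Total RNA of 12 pairs of mouse forelimb buds was sequenced as 85-base single-end reads, per the labels' protocols, and the submitters' processing notes name FastQC 0.11.4, STAR 2.5.2, RSEM 1.3.0 and mm10. Each deposited file gives RSEM expected counts for 1 library by Ensembl gene, without normalisation. Of these values, 12.5 to 16.2% per library were not whole, and no source used here gives the strand setting. Identifiers were matched to GENCODE M21 (GRCm38), in which 53274 of 53465 have a symbol. Of the 64 Zfp9 genes, 48 had a non-whole value in some library and 26 in all 12.

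Expected counts were rounded and tested with edgeR 4.0.16 in R 4.3.3: filterByExpr (minimum count 10, minimum total 15), TMM scaling, quasi-likelihood testing, and p-values adjusted after Benjamini and Hochberg across every gene that entered the fit, called at 0.05. Each mutant was tested against its own wild type in 6 libraries, and the difference of effects and the wild types in all 12. SE was taken as log2 fold change over the root of the test's F value. Levels in CPM were TMM scaled across 12 libraries. P-values measure the spread between embryos, whose litters no source used here gives. Alternatives were DESeq2 1.42.0, RLE scaling, no filter, embryo sex or replicate number as a covariate, all 12 libraries in 1 fit, and each library left out. Counts were simulated from these libraries, with changed genes drawn from all levels tested. In the Tbx3 comparison (15130 genes) the test recovered 70.53% of changes of 1 and 90.62% of changes of 2 on the log2 scale. In the Hand2 comparison (17488 genes) it recovered 70.21% and 92.86%. False calls numbered 12 and 15. Recovery among genes with the levels and shared reads of the Zfp9 genes was not measured.

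The named genes are Tbx3 and Hand2, every called Zfp9 gene, the 6 highest and 6 lowest fold changes of each mutant comparison, the 6 highest levels per length, the lowest and highest of each chromosome with at least 4, those with 0 counts, those within 20 Mb of a targeted gene, called genes of the list of 33, and the 5 genes most like a called gene by Pearson's r of log2 CPM. Zfp933, Zfp974, Zfp963, Znf41-ps, Gm13241, the distal chromosome 2 copies and Trim28 with Setdb1 were named beside them for the comparison. The members and lists were chosen with earlier results of these data known.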

Additional observations from a re-analysis of the deposited data

How the results depend on the processing

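The count of Zfp9 genes called in Tbx3_del was 0 in every alternative run, including each fit without a library. In Hand2_del it was 4, and 2 with embryo sex as a covariate (Zfp941 and Zfp991), 1 with a replicate block (Zfp991) and 0 to 3 without a library, where 0 was without Hand2_WT replicate 3 and 1 without Hand2_WT replicate 1. The other fits gave 3 to 6. For the difference of effects it was 0, and 1 with DESeq2. For the wild types it was 2, and 6 with DESeq2, 1, Zfp991, with the replicate block (chosen after seeing the data) and 0 to 2 without a library.

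Over all genes, the 153 calls of the Tbx3 comparison became 422 with 12 libraries in the fit, 551 with DESeq2, 504 without a low-count filter, 22 with embryo sex, 87 with the replicate block and 23 to 220 without a library. The 1836 of the Hand2 comparison became 3451 with DESeq2, 526 with embryo sex, 161 with the replicate block and 218 to 2223 without a library. The cause was not tested. With embryo sex as a covariate, the Tbx3 comparison rested on Tbx3_del replicate 3 alone, here and for the single genes below. Deviations from the group means of same-numbered libraries correlated at 0.18, 0.04 and -0.01 in the Tbx3 series. In the Hand2 series they correlated at -0.24, 0.15 and 0.18. Not every library correlated best with its own number, so the numbers gave no steady pairing across genes. Whether same-numbered embryos shared a litter was not tested. In replicate 2 of both Tbx3 groups Zfp990 was near 0 (0.262 CPM in Tbx3_WT and 0.256 in Tbx3_del).

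Of the values of single named genes under an alternative, 272 kept direction and side of the threshold, 19 lost the call and 7 changed sign, none of them called. These 7, all in the Tbx3 comparison, were Zfp951 without Tbx3_WT replicate 1 (0.38), Zfp990 without Tbx3_WT replicate 2 (-0.29), Tbx3_del replicate 1 (-0.16) and Tbx3_del replicate 3 (-0.12), Zfp991 without Tbx3_del replicate 2 (-0.081), and, with embryo sex, Zfp974 (-0.04) and Zfp977 (-0.39). Without a library, Zfp951 ranged from -1.05 to 0.38, Zfp990 from -0.29 to 0.80 and Zfp991 from -0.081 to 0.763. Filtered by a mean of 1 CPM or more in either group, 49 and 51 genes were measurable in the Tbx3 and Hand2 series, and with at least 1 count in any library 62 in each. The series differed in depth, and the 5 chromosome 4 genes measurable only in the Hand2 series did not all differ in level. Zfp985 was at 2.25 to 3.86 CPM in Hand2_WT and at 0.0408 to 0.344 CPM in the Tbx3 series. Zfp981 had a mean of 0.291 CPM in both Tbx3_WT and Hand2_WT. The part of depth was not tested.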
